A study of Mus musculus with 419 samples.

Results

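Mt1, Mt2, Slc30a1, Slc39a14 and Mtf1 were chosen by symbol as the metallothionein and zinc transport genes of the deposited mouse count table, and they are 5 of its 55487 genes. Their messenger RNA was followed in 419 bulk RNA-seq libraries from 19 tissues of CBA/CaJ mice that model REDs, the syndrome of athletes whose energy intake falls short of what exercise and body functions use. The groups were Deficient (energy-deficient) and Control (energy-sufficient) mice of both sexes, sampled at ZT17 or ZT05, where zeitgeber time (ZT) counts the hours since lights-on. All mice shared the strain, and no transgene or deletion is named. The labels name the treatments only as Deficient and Control, and age, diet and exercise are not given in the sources used here. Each tissue, sex, treatment and ZT group had 3 libraries, apart from 2 in the tibialis anterior tendon of male Control mice at ZT05. A Deficient or Control group of 1 sex therefore had 6 libraries per tissue over both times (5 in that tendon). Library names carry a leading number, read here as a mouse number, since it recurs over the tissues with the same sex, treatment and time. By that number 12 female and 24 male mice gave all the libraries, so the tissues are not independent samples.

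Metallothioneins are small cysteine-rich proteins of the cytosol that bind zinc and copper and release zinc again when thiols are oxidised. Mt1 and Mt2 encode the forms made in most tissues, and the liver makes much of both in fasting, stress and inflammation. Their promoters hold metal response elements, bound by the zinc-sensing transcription factor MTF1 (Mtf1), and glucocorticoid receptor acts on the same locus in mice. ZNT1 (Slc30a1) is the zinc exporter of the plasma membrane and is itself a target of MTF1. ZIP14 (Slc39a14) imports zinc, iron and manganese, and in the liver it is induced by interleukin-6.

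Mt2 and Mt1 are neighbours on mouse chromosome 8 (GRCm38). Mt2 lies on the plus strand at chr8:94172664-94173568 and Mt1 on the same strand at chr8:94179082-94180327, with 5513 bases between them. Slc30a1 lies at chr1:191906767-191913247 (plus strand), Slc39a14 at chr14:70303469-70351425 (minus strand) and Mtf1 at chr4:124802104-124849800 (plus strand). Mt2 overlaps the antisense gene Gm45774, Slc30a1 overlaps 1700034H15Rik and Mtf1 overlaps 1110065P20Rik on the other strand. Whether the counting used strand, and how it treated reads shared by Mt1 and Mt2, is not given in the sources used here, so a part of such reads may be split between these genes.

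The promoters of Mt1, Mt2 and Slc30a1 are shown because the metal response element, whose core reads TGCACNC or TGCGCNC, is the sequence feature by which these genes are known to be regulated. The sequences are RefSeq's (GRCm38.p6), for 236 bases that end 15 bases before the start RefSeq annotates. Capitals mark each match of either core on either strand.
Mt1: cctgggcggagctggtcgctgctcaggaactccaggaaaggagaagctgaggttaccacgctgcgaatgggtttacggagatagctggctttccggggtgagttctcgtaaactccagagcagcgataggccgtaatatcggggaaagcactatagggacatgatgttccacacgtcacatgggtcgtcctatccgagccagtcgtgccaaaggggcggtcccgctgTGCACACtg
Mt2: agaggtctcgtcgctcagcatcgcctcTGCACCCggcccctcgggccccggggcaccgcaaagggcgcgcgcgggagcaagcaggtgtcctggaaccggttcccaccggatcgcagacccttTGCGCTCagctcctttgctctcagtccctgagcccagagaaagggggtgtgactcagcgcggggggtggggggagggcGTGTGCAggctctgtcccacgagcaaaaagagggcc
Slc30a1: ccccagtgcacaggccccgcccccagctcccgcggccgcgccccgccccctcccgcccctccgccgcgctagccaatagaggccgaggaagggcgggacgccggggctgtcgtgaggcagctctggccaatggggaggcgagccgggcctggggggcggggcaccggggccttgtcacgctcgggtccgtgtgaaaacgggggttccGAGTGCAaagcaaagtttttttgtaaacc

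The Mt1 stretch is chr8:94178839-94179074, the Mt2 stretch chr8:94172368-94172603 and the Slc30a1 stretch chr1:191906531-191906766, each read on the plus strand. Mt2 held 3 matches, 2 on the plus strand and 1 on the minus strand, and Mt1 and Slc30a1 held 1 each. The Mt1 match ran from base -23 to base -17 before the start and the Slc30a1 match from -43 to -37. Those of Mt2 ran from -223 to -217, from -128 to -122 and from -50 to -44. The same window of Mtf1 held 0 matches, and the promoter table held 4 of the 5 genes. Over all 32851 promoters of the table, 20.1% held at least 1 match and 1.12% at least 3. In GENCODE vM21 other transcripts start further in, by up to 152 bases for Mt1, 242 for Mt2, 475 for Slc30a1 and 129 for Mtf1. The bases just before those inner starts are neither shown nor searched here. The counts of matches are therefore those of the printed windows and not of all metal response elements of a gene. A match describes letters in this window and not a bound site.

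Library totals ran from 5777450 to 53598697 counts (median 17426150). In 58 libraries, all from males numbered 31 to 62, more than 50% of the counts fell on mitochondrially encoded or rRNA-like genes, and counts outside those genes went down to 376622. Males numbered 73 to 94 are called the second cohort here, and all other mice the first. Male tissues came from the first cohort (heart, liver, lung, pituitary and testis), the second (adrenal gland, EDL, EDL tendon, kidney, soleus, TA and TA tendon) or both (brown adipose tissue, gastrocnemius, its tendon, quadriceps and spleen). EDL is the extensor digitorum longus and TA the tibialis anterior, both hindlimb muscles. Every tissue held its own 4 marker genes, but in the ovary Cyp11a1 was under 3 CPM (counts scaled to library size) in 8 of 12 libraries. Tendon libraries were rich in muscle RNA: the skeletal muscle marker sum had medians of 69930 (EDL tendon), 80597 (gastrocnemius tendon) and 78880 CPM (TA tendon), against 6672, 767 and 4398 CPM for the tendon markers. Liver markers reached 22980 CPM in 1 male gastrocnemius tendon library (Deficient, ZT17, mouse 54), and pancreas markers 3727 and 14346 CPM in 2 female spleen libraries (Deficient mouse 60 and Control mouse 31). In bulk RNA, fewer cells of a type and less RNA per cell cannot be told apart.

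Energy deficiency was followed first over both times in each sex. Levels are CPM scaled within a tissue by trimmed mean of M-values (TMM), and changes were tested with edgeR's quasi-likelihood test in each tissue and Benjamini-Hochberg adjustment over all genes tested there. A pair of gene and tissue is called at an adjusted p under 0.05, and changes are given as log2 fold changes of Deficient over Control ± SE with that p. Among females 16 of 90 pairs were called higher in Deficient mice and 0 lower, where over all genes and tissues 4.93% of tests were called higher and 5.29% lower. DESeq2 called 19 of the 90 higher and 0 lower, and 40 had an unadjusted p under 0.05 in edgeR, where 23.3% of tests over all genes did. Among males 13 of 85 pairs were called higher and 0 lower, against 3.09% and 3.16% over all genes. DESeq2 called 20 of the 85, and 29 had an unadjusted p under 0.05, where 19.9% of tests over all genes did. Mt1 and Mt2 each rose in 6 of 18 female tissues and each in 6 of 17 male tissues. Slc30a1 rose in 3 female tissues, Slc39a14 in 1 tissue of each sex and Mtf1 in 0. The median log2 fold change over female tissues was 0.84 for Mt1, 1.13 for Mt2, 0.08 for Slc30a1, 0.30 for Slc39a14 and -0.01 for Mtf1, and over all genes 0.0079. Over male tissues the Mt1 median was 0.94 and the Mt2 median 1.01, and over all genes 0.0130.

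**Figure D1:**
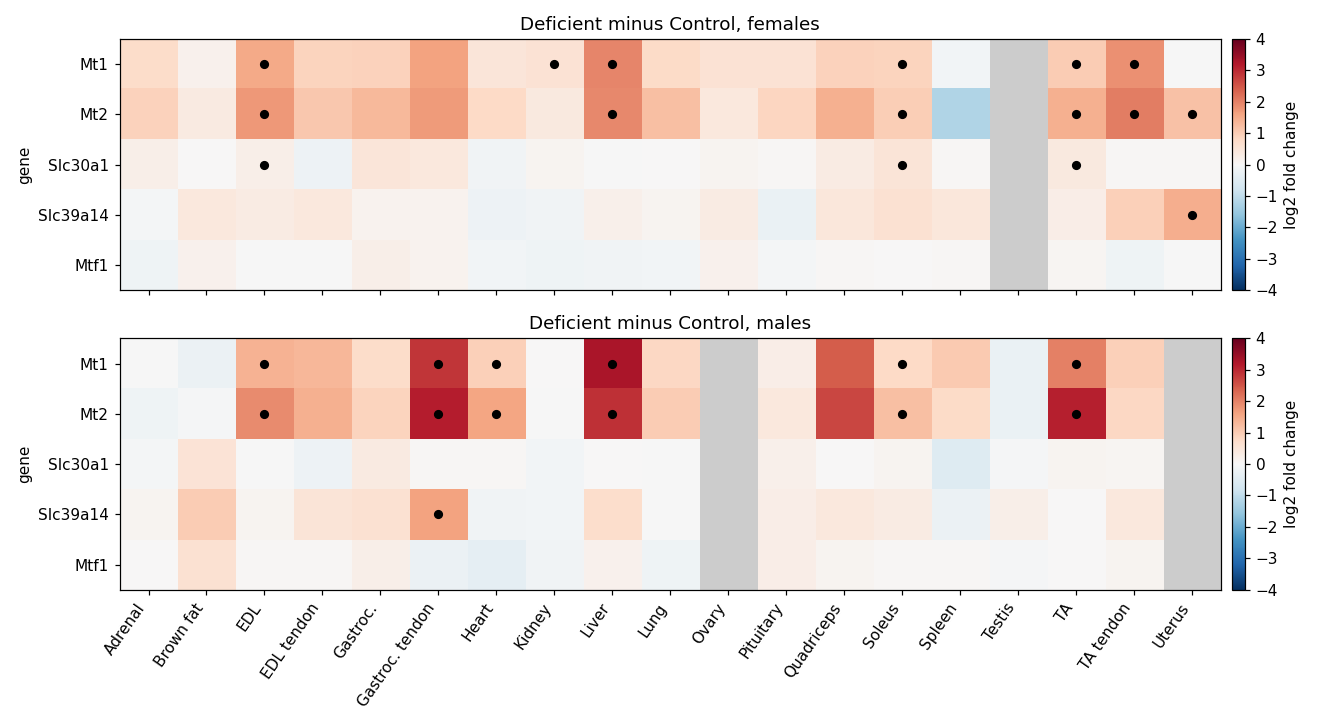
Log2 fold change of Deficient over Control for the 5 genes (rows) in each tissue (columns), females above males. Dots mark an adjusted p under 0.05 and grey marks a tissue that a sex does not have; called cells gather in the rows of Mt1 and Mt2 and are all positive.

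Liver, the organ that holds much of the body's metallothionein, had both metallothioneins called higher in both sexes. In female livers Mt1 had 51.7, 101 and 160.2 CPM (lowest, median and highest library) in Deficient mice, against 7.80, 21.6 and 51 CPM in Control mice. Each female Deficient library lay above each Control library, at a log2 change of 1.97 ± 0.44 SE, adjusted p = 0.00626 (3.91-fold). Female Mt2 had 36.2, 62.4 and 130.4 CPM in Deficient livers, against 6.01, 15.9 and 37.6 CPM in Control livers, which overlapped narrowly, and it rose by 1.92 ± 0.45 SE, adjusted p = 0.00848. In male livers Mt1 reached 92.3, 190.3 and 548 CPM in Deficient mice, against 2.76, 24 and 69.2 CPM in Control mice, with no overlap. Its log2 fold change was 3.28 ± 0.50 SE, adjusted p = 0.00012 (9.71-fold). Male Mt2 had 30.6, 56.8 and 126 CPM in Deficient and 1.66, 9.45 and 20.7 CPM in Control livers, again with no overlap, at 2.93 ± 0.55 SE, adjusted p = 0.00111. Non-overlap of groups, with all Deficient libraries above, was found in 2.4% of female and 0.923% of male tests over all genes. All 4 calls held with every mouse left out in turn and under every alternative tried.

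The male liver values depend on their scale. Mitochondrial and rRNA-like genes took 78.8 to 88.2% of the counts in Deficient male livers, against 84.7 to 95.1% in Control male livers, and raw Mt1 counts were 101 to 2469 in Deficient against 5 to 278 in Control livers. On CPM taken outside those genes, male Mt1 ran from 117 to 1910 in Deficient and from 9.998 to 250.1 in Control livers, so the groups overlapped there. The summed markers of red blood cells were lower in the same comparison, at 3.77 to 10.2 CPM in Deficient against 21.8 to 71.5 CPM in Control female livers, with 4 of 4 tested markers called lower. In males they were 33.3 to 225 CPM in Deficient against 218 to 777 CPM in Control livers, also with 4 of 4 lower. The part of red blood cell RNA in the liver values was not tested.

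Slc30a1, Slc39a14 and Mtf1 were not called in the liver of either sex. Slc39a14 had 12.7, 30.2 and 44.2 CPM in male Deficient livers, against 5.52, 17.2 and 34.8 CPM in male Control livers (log2 fold change 0.72 ± 0.28 SE, adjusted p = 0.108). In females it had 55.6, 63.3 and 98.9 CPM in Deficient against 57, 60.05 and 65.4 CPM in Control livers (0.20 ± 0.23 SE, adjusted p = 0.752). For Mtf1 the liver log2 fold change was -0.14 ± 0.16 SE, adjusted p = 0.745 in females and 0.16 ± 0.31 SE, adjusted p = 0.814 in males.

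**Figure D2:**
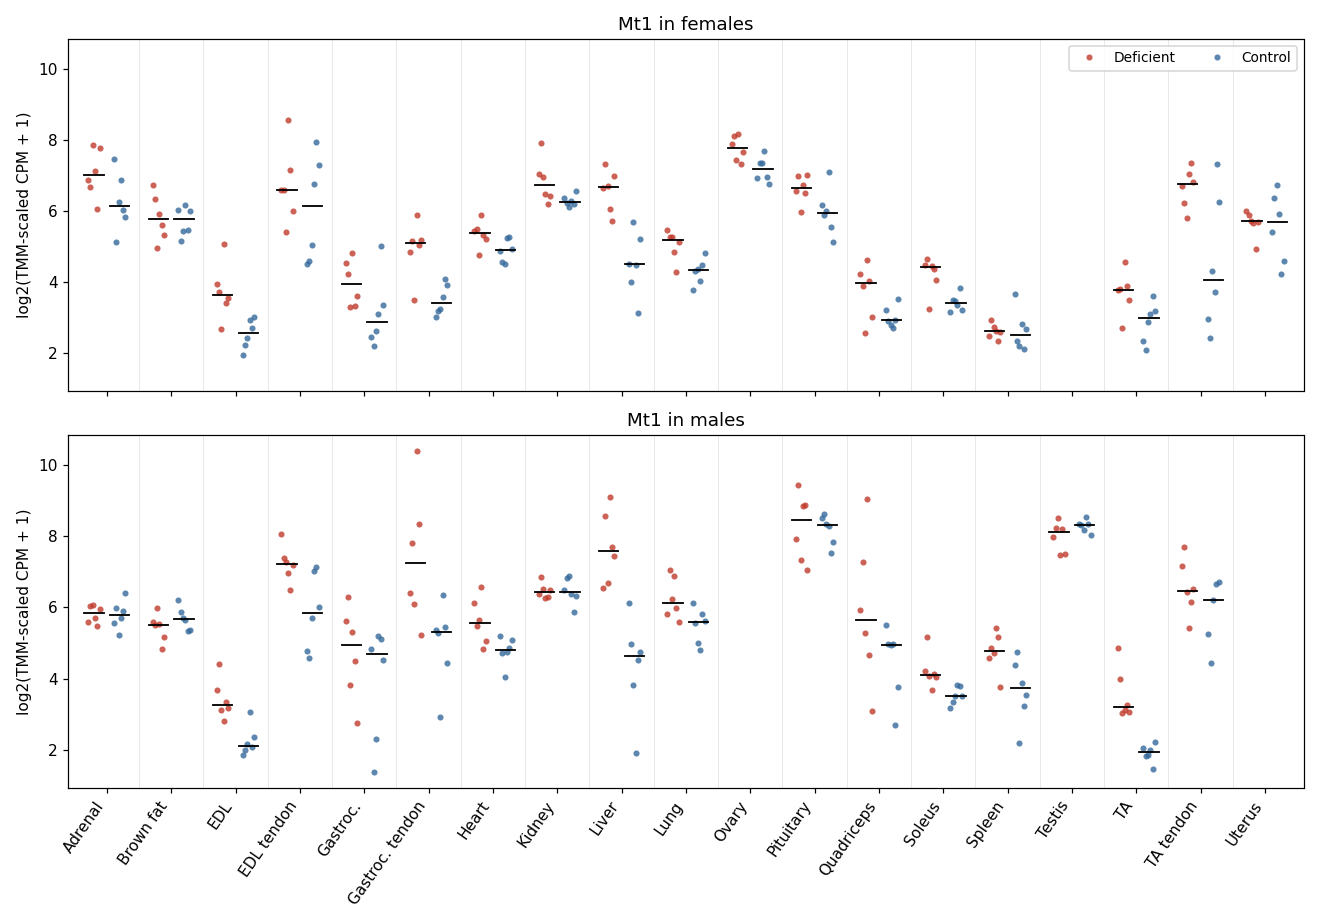
Mt1 level of every library as log2(CPM + 1) by tissue, females above and males below, with Deficient left of Control and a bar at each group's median. Deficient libraries lie above Control libraries without overlap in the female and male liver and the male TA, and 1 male Deficient gastrocnemius tendon library reaches 1341 CPM.

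The hindlimb muscles EDL, TA and soleus repeated the rise of both metallothioneins in both sexes. In female EDL Mt1 had 5.36, 11.5 and 32.6 CPM in Deficient mice, against 2.88, 4.93 and 7.03 CPM in Control mice, a log2 change of 1.52 ± 0.30 SE, adjusted p = 0.000636. Mt2 there had 4.57, 8.33 and 19.2 CPM in Deficient and 1.5, 2.66 and 4.96 CPM in Control muscles (1.73 ± 0.34 SE, adjusted p = 0.000694). Male EDL had 5.94, 8.58 and 20.2 CPM of Mt1 in Deficient against 2.57, 3.33 and 7.32 CPM in Control mice (1.41 ± 0.32 SE, adjusted p = 0.00732). These 3 pairs of groups overlapped at their edges, the medians being more than 2-fold apart. Male EDL Mt2 was 2.38, 3.94 and 12.8 CPM in Deficient against 0.942, 1.19 and 2.67 CPM in Control mice (1.89 ± 0.42 SE, adjusted p = 0.0057), also with overlap at the edge. The highest library of Mt1 in Deficient female EDL (32.6 CPM, mouse 36) and of Mt2 in Deficient male EDL (12.8 CPM, mouse 81) stood far from the others, and all 4 EDL calls held without either mouse.

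TA gave the largest called muscle difference in males. Mt1 had 7.17, 8.18 and 28.1 CPM in Deficient male TA, against 1.77, 2.78 and 3.67 CPM in Control male TA, and Mt2 had 1.99, 4.21 and 14 CPM in Deficient against 0.252, 0.530 and 1.03 CPM in Control. Neither gene's groups overlapped. The log2 fold changes were 2.03 ± 0.29 SE, adjusted p = 0.000218 for Mt1 and 3.11 ± 0.55 SE, adjusted p = 0.00104 for Mt2. In female TA Mt1 had 5.57, 12.8 and 22.8 CPM in Deficient against 3.24, 7.0 and 11.1 CPM in Control mice (1.0 ± 0.26 SE, adjusted p = 0.00605). Mt2 had 2.63, 7.16 and 14.2 CPM in Deficient against 1.0, 2.76 and 6.83 CPM in Control female TA (1.43 ± 0.42 SE, adjusted p = 0.0137), and this call was lost without mouse 36 (log2 fold change 0.99, adjusted p = 0.0804). The female groups overlapped for both genes.

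Soleus, the slow muscle, had calls for both genes in both sexes. Female soleus had 8.48, 20.3 and 24.3 CPM of Mt1 in Deficient against 7.86, 9.65 and 13.1 CPM in Control mice (0.90 ± 0.22 SE, adjusted p = 0.0062) and 5.02, 13.4 and 19.8 CPM of Mt2 in Deficient against 4.78, 6.54 and 8.69 CPM in Control (0.98 ± 0.25 SE, adjusted p = 0.00929). In male soleus Mt2 had 6.33, 9.67 and 22.8 CPM in Deficient, above all Control libraries (3.46, 4.66 and 6.02 CPM), with a log2 change of 1.21 ± 0.27 SE, adjusted p = 0.0071. Male Mt1 had 11.8, 16.1 and 35.3 CPM in Deficient against 7.98, 10.3 and 13.2 CPM in Control soleus (0.78 ± 0.22 SE, adjusted p = 0.0291). The groups overlapped apart from male Mt2. The male Mt1 call was lost without any 1 of mice 77, 81, 82, 85, 86, 90 and 94 (log2 fold change from 0.56 to 0.81, adjusted p from 0.0503 to 0.104). In the mixed gastrocnemius and quadriceps no gene was called over both times. Male quadriceps Mt1 had 7.47, 49.1 and 533 CPM in Deficient against 5.42, 30.1 and 44.2 CPM in Control mice (2.42 ± 0.68 SE, adjusted p = 0.0664), with the highest value in mouse 38.

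Slc30a1 rose in the same 3 muscles of females. It had 16.7, 25.3 and 35.3 CPM in Deficient soleus, against 10.2, 18.8 and 27 CPM in Control soleus (0.51 ± 0.13 SE, adjusted p = 0.00855). In TA it had 10.8, 14.6 and 23.5 CPM in Deficient against 8.88, 11.7 and 15.8 CPM in Control mice (0.40 ± 0.12 SE, adjusted p = 0.0123), and in EDL 10.1, 14.6 and 22 CPM in Deficient against 9.32, 12.7 and 16.2 CPM in Control mice (0.22 ± 0.08 SE, adjusted p = 0.0378). The groups overlapped widely in all 3, and the EDL call was lost without any 1 of mice 32, 39, 43, 47, 48 and 60 (log2 fold change from 0.18 to 0.22, adjusted p from 0.0688 to 0.112). Per tissue, 12.1% of genes were called higher in female soleus, 15.6% in female TA and 16% in female EDL. Male log2 fold changes of Slc30a1 were 0.11 ± 0.13 SE, adjusted p = 0.663 in soleus, 0.11 ± 0.13 SE, adjusted p = 0.639 in TA and -0.03 ± 0.09 SE, adjusted p = 0.885 in EDL.

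Markers of other cells moved with these results in female muscle, and male muscle is not given here. Over all genes 2377 of 14893 were called lower in female EDL, 2242 of 14847 in female TA and 1464 of 15436 in female soleus. In female EDL the fibroblast marker sum was 494 to 796 CPM in Deficient against 925 to 1368 CPM in Control mice, with 4 of 5 markers called lower, and red blood cell markers were 6.87 to 45.6 CPM in Deficient against 49.8 to 98.5 CPM in Control mice, with 4 of 4 lower. Both tested neutrophil markers were called higher, at 0.536 to 7.11 CPM in Deficient against 0.251 to 1.04 CPM in Control. In female TA 4 of 5 fibroblast, 4 of 5 macrophage and 5 of 5 adipocyte markers were called lower. In female soleus 5 of 5 macrophage markers were called lower. Their part in the metallothionein and Slc30a1 values was not tested.

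Tendon libraries gave the highest single metallothionein values of the series' Deficient mice. In the male gastrocnemius tendon Mt1 had 83.3, 222 and 67.4 CPM in Deficient mice at ZT05 and 1341, 327 and 36.5 CPM at ZT17, against 39.9, 38.0 and 6.53 CPM in Control mice at ZT05 and 80.0, 42.9 and 20.5 CPM at ZT17. The groups overlapped, as 2 Deficient libraries (67.4 and 36.5 CPM) lay inside the Control range. Mt1 rose by 2.86 ± 0.61 SE, adjusted p = 0.0115 and Mt2 by 3.15 ± 0.65 SE, adjusted p = 0.0101 on the log2 scale. Mouse 38 gave the 1341 CPM, and without that animal the log2 fold change was 2.04, adjusted p = 0.0264 for Mt1 and 2.25, adjusted p = 0.0223 for Mt2. The second cohort gave 2 Control libraries (6.53 and 20.5 CPM of Mt1) and 0 Deficient libraries. Within the first cohort Mt1 had 36.5, 153 and 1341 CPM in 6 Deficient libraries, against 38.0, 41.4 and 80.0 CPM in 4 Control libraries. With a term for cohort the log2 fold changes were 2.43 (adjusted p = 0.0332) for Mt1 and 2.73 (adjusted p = 0.0319) for Mt2, and with males fitted alone 2.87 (adjusted p = 0.189) and 3.16 (adjusted p = 0.180).

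Slc39a14 rose in the same tendon, with 5.13, 10.6 and 139 CPM in Deficient against 5.11, 6.45 and 13 CPM in Control males (1.60 ± 0.42 SE, adjusted p = 0.0269). The values over 80 CPM came from mouse 38 (139 CPM) and mouse 54 (88.5 CPM), the library that held liver RNA, and the other 4 Deficient libraries overlapped Control. The call was lost without mouse 34 (1.52, adjusted p = 0.0521), mouse 38 (1.25, adjusted p = 0.0642) or mouse 45 (1.38, adjusted p = 0.0845). Without mouse 54's library it stood at 1.56 with an adjusted p of 0.0371, and Mt1 and Mt2 were then at 3.01 (adjusted p = 0.00904) and 3.30 (adjusted p = 0.00737). Males fitted alone gave Slc39a14 a log2 fold change of 1.63 (adjusted p = 0.228).

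The female TA tendon also rose. Mt1 had 54.5, 108 and 161 CPM in Deficient against 4.32, 15.5 and 160.2 CPM in Control mice (1.82 ± 0.46 SE, adjusted p = 0.0245), and Mt2 had 43.2, 135 and 259 CPM in Deficient against 2.55, 13.6 and 268 CPM in Control (2.05 ± 0.56 SE, adjusted p = 0.0334). The groups overlapped, since the lowest Control libraries lay below all Deficient ones, while the highest Control library was near the highest Deficient one for Mt1 and above it for Mt2. By time, Mt1 had 54.5, 73.8 and 103 CPM in Deficient against 4.32, 6.79 and 19.0 CPM in Control females at ZT05. At ZT17 it had 112, 130 and 161 CPM in Deficient against 12.1, 75.3 and 160.2 CPM in Control females. The Mt1 call was lost without any 1 of mice 31, 39, 43 and 56 (log2 fold change from 1.64 to 1.83, adjusted p from 0.0503 to 0.0765). The Mt2 call was lost without any 1 of mice 31, 32, 39, 43, 44, 56, 59 and 60 (log2 fold change from 1.78 to 2.22, adjusted p from 0.0504 to 0.0958). Without mouse 47 its log2 fold change was 2.64, adjusted p = 0.00552. Macrophage markers summed to 547 to 1228 CPM in Deficient and 42.4 to 1231 CPM in Control TA tendons, with 0 of 5 called.

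**Figure D3:**
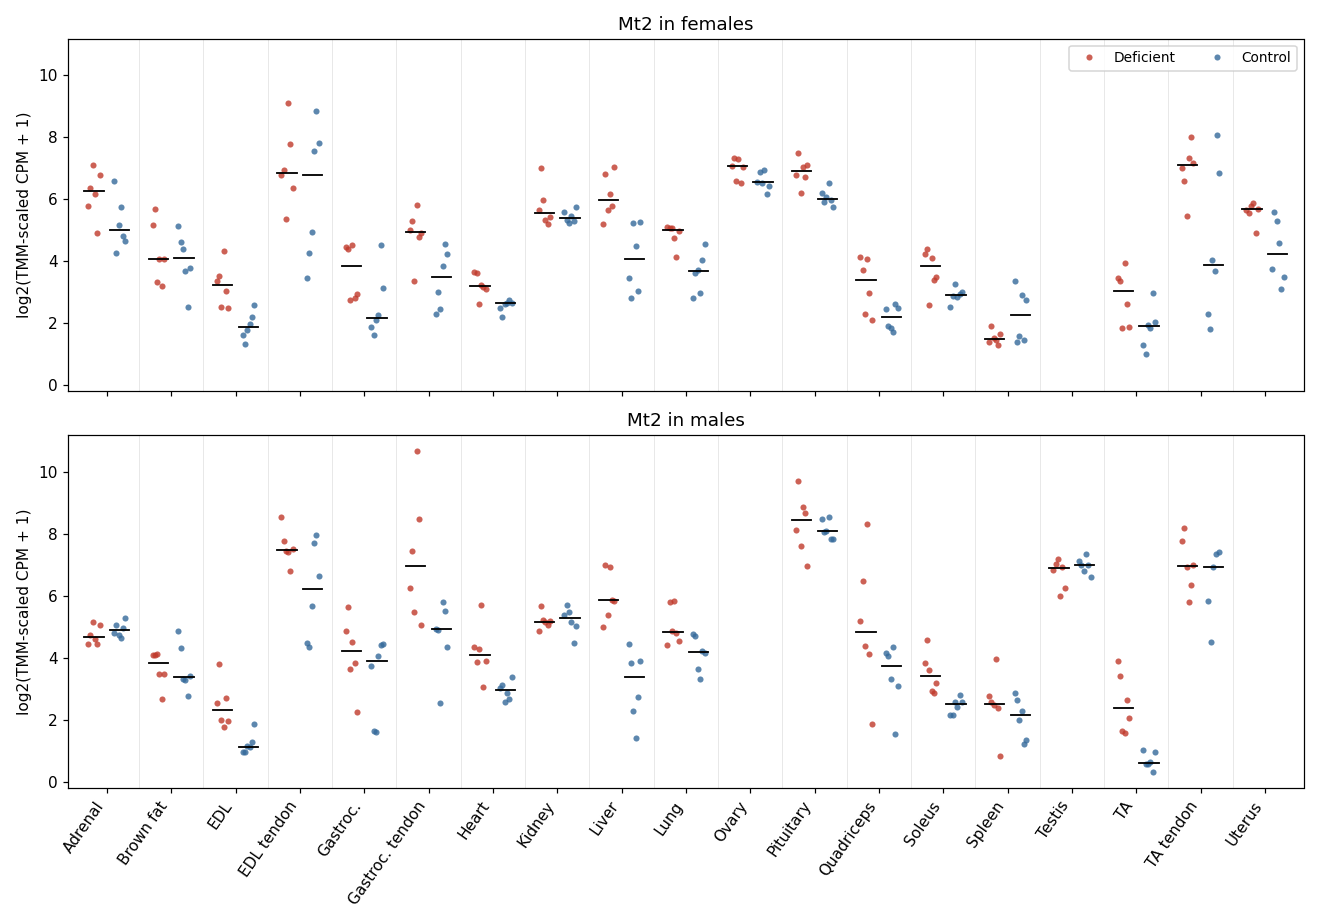
Mt2 level of every library as log2(CPM + 1) by tissue, females above and males below, with Deficient left of Control and a bar at each group's median. Deficient male liver, TA and soleus lie above Control without overlap, and Control libraries of the female EDL and TA tendons spread as widely as the Deficient ones.

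The heart rose in males. Mt2 had 7.40, 16.1 and 50.8 CPM in Deficient male hearts, against 5.02, 6.74 and 9.49 CPM in Control male hearts (1.56 ± 0.33 SE, adjusted p = 0.0122). Mt1 had 27.7, 46 and 93.5 CPM in Deficient against 15.3, 26.9 and 35.5 CPM in Control (0.94 ± 0.25 SE, adjusted p = 0.0434). The groups overlapped for both. The Mt2 call held without each mouse, while the Mt1 call was lost without any 1 of 16 of 24 mice (log2 fold change from 0.57 to 1.0, adjusted p from 0.0501 to 0.162). Without mouse 38, which gave the highest value, its log2 fold change was 0.57, adjusted p = 0.162. With males fitted alone neither heart call passed. Neutrophil markers rose with them, 3 of 3 called higher and 11.2 to 418 CPM in Deficient against 7.64 to 41 CPM in Control hearts, as did 2 of 5 macrophage markers, and their part was not tested. Female hearts had 5.15, 8.17 and 11.6 CPM of Mt2 in Deficient against 3.65, 5.24 and 5.66 CPM in Control mice, which was not called (0.80 ± 0.29 SE, adjusted p = 0.14).

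In the kidney Mt1 rose in females. It had 71.6, 105 and 238 CPM in Deficient against 68.4, 74.8 and 92.7 CPM in Control kidneys (0.58 ± 0.14 SE, adjusted p = 0.0105), a 1.49-fold change between groups that overlapped. Mouse 43 gave the highest value, 238 CPM, and the call held without that animal. Mt2 was 35.7, 45.8 and 128 CPM in Deficient against 36.5, 41.1 and 52.6 CPM in Control females (0.39 ± 0.18 SE, adjusted p = 0.168), and male kidneys had 76.7, 85.5 and 116 CPM of Mt1 in Deficient against 58, 85.5 and 117 CPM in Control (0.01 ± 0.14 SE, adjusted p = 0.972). Kidney markers summed to 5755 to 9852 CPM in Deficient females against 12939 to 16548 CPM in Control females, and 4 of 4 red blood cell markers were called lower there.

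The uterus was the tissue in which the importer led. Slc39a14 had 68.4, 103 and 141 CPM in Deficient uteri, against 29, 38.5 and 48.4 CPM in Control uteri, with each Deficient library above each Control library (1.44 ± 0.20 SE, adjusted p = 0.000339, 2.71-fold). Mt2 had 29.3, 50.04 and 58.4 CPM in Deficient against 7.69, 17.6 and 46.9 CPM in Control uteri, overlapping groups (1.18 ± 0.34 SE, adjusted p = 0.014). Mt1, its neighbour, had 29.3, 51.3 and 63.5 CPM in Deficient against 17.9, 50.7 and 104 CPM in Control uteri and was not called (-0.01 ± 0.30 SE, adjusted p = 0.976). In this tissue 21.2% of all genes were called higher. Neutrophil markers were lower, at 0.530 to 2.92 CPM in Deficient against 11.7 to 88.1 CPM in Control uteri with 3 of 3 called, and uterus markers summed to 877 to 2202 CPM in Deficient against 3198 to 15291 CPM in Control uteri. Endothelial markers were higher, 4 of 5 called, and the part of these cells in the values was not tested.

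In the ovary, testis and pituitary none of the 5 genes was called over both times. Ovary Mt1 had 157, 218 and 283 CPM in Deficient against 108, 143 and 204 CPM in Control mice (0.59 ± 0.20 SE, adjusted p = 0.0901). Testis Mt1 had 178, 275 and 364 CPM in Deficient against 264, 321 and 371 CPM in Control mice (-0.28 ± 0.12 SE, adjusted p = 0.356). Female pituitary Mt2 had 72.7, 119.8 and 178 CPM in Deficient against 52.8, 63.9 and 90.7 CPM in Control mice (0.86 ± 0.33 SE, adjusted p = 0.191). All 3 pairs of groups overlapped. Lung Mt2 was not called either, with 16.5, 31.4 and 33.6 CPM in Deficient against 5.99, 11.8 and 22.7 CPM in Control females (1.22 ± 0.31 SE, adjusted p = 0.122) and 20.5, 27.3 and 56.1 CPM in Deficient against 8.97, 17.1 and 26 CPM in Control males (1.01 ± 0.32 SE, adjusted p = 0.0718).

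Whether the sexes responded differently was tested in the 16 tissues that both have. Of 80 pairs 0 were called, where 1.15% of tests over all genes were, and DESeq2 called 1. In edgeR 10 of the 80 had an unadjusted p under 0.05, close to the share over all genes (11.8%). The nearest was Mt1 in the kidney, with a female minus male log2 difference of 0.57 ± 0.20 SE, adjusted p = 0.0539. In TA the differences were -1.03 ± 0.39 SE, adjusted p = 0.18 for Mt1 and -1.69 ± 0.71 SE, adjusted p = 0.215 for Mt2. Females were all of the first cohort while male kidney, TA, soleus and EDL came from the second, so sex and cohort cannot be told apart in these 4 tissues. The Slc30a1 difference was 0.40 ± 0.19 SE, adjusted p = 0.437 in soleus and 0.25 ± 0.12 SE, adjusted p = 0.44 in EDL. A rise called in females and not in males, as for Slc30a1, is therefore not shown to differ between the sexes.

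Time of day entered through ZT17 and ZT05, with both sexes averaged (n = 6 per treatment and time in most tissues). At ZT05 22 of 95 pairs were called higher in Deficient mice and 0 lower (3.87% and 3.98% over all genes). These were Mt1 in 8 tissues, Mt2 in 10 and Slc39a14 in 4. At ZT17 13 were called higher and 3 lower (4.19% and 4.26% over all genes), namely Mt1 in 4 tissues, Mt2 in 5, Slc30a1 in 2 and Slc39a14 in 2 higher, and Slc39a14 in 1 and Mtf1 in 2 lower. Liver Mt1 rose at both times, by 3.05 ± 0.49 SE, adjusted p = 0.000191 at ZT17 and by 2.20 ± 0.46 SE, adjusted p = 0.00347 at ZT05. TA Mt1 rose by 1.13 ± 0.28 SE, adjusted p = 0.00738 at ZT17 and by 1.90 ± 0.28 SE, adjusted p = 7.13e-05 at ZT05, and EDL Mt1 by 1.07 ± 0.30 SE, adjusted p = 0.0132 at ZT17 and by 1.85 ± 0.32 SE, adjusted p = 0.000367 at ZT05. The EDL call at ZT17 was lost without mouse 36 (0.67, adjusted p = 0.0686). Mt1 and Mt2 rose in the lung at ZT05, by 1.02 ± 0.26 SE, adjusted p = 0.0173 and 1.23 ± 0.32 SE, adjusted p = 0.0179, and both calls were lost without mouse 31 (0.93, adjusted p = 0.0512 for Mt1 and 1.10, adjusted p = 0.0521 for Mt2).

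The difference of the Deficient responses at the 2 times, ZT17 minus ZT05, was called for 2 pairs higher and 3 lower (0.912% and 0.989% over all genes). None of the 5 was a metallothionein. They were Slc30a1 in brown adipose tissue and soleus, Slc39a14 in kidney, and Mtf1 in kidney and lung.

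The exporter Slc30a1 showed the clearest pattern by time, in hindlimb muscle. In Control soleus it had 9.50, 10.9 and 11.9 CPM at ZT17, against 22.2, 25.4 and 27 CPM at ZT05, with no overlap (-1.21 ± 0.13 SE, adjusted p = 4e-06 for ZT17 minus ZT05). Deficient soleus had 12.8, 17 and 23.1 CPM at ZT17 against 11.5, 25.2 and 35.3 CPM at ZT05 (-0.49 ± 0.13 SE, adjusted p = 0.0449), a call lost without any 1 of 19 of 24 mice (log2 fold change from -0.51 to -0.41, adjusted p from 0.0509 to 0.127). The Deficient and Control groups overlapped at ZT05, while at ZT17 each Deficient library lay above each Control library. For comparisons by time, with the sexes pooled, the share of all genes without overlap is not given here. Non-overlap in the results by time is therefore a description only. The difference of responses was 0.72 ± 0.19 SE, adjusted p = 0.0336, and it was lost without any 1 of mice 31, 48, 56, 60, 74, 78, 82, 85 and 94 (log2 fold change from 0.65 to 0.73, adjusted p from 0.0507 to 0.0727).

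Control EDL had 5.84, 8.88 and 10.7 CPM of Slc30a1 at ZT17 against 12.6, 14.6 and 16.2 CPM at ZT05 (-0.75 ± 0.08 SE, adjusted p = 4.49e-06), again without overlap. Deficient EDL had 8.32, 9.83 and 11.3 CPM at ZT17 against 9.26, 14.6 and 22 CPM at ZT05 (-0.54 ± 0.08 SE, adjusted p = 0.000753), overlapping groups. In Control TA the values were 7.32, 8.48 and 11 CPM at ZT17 against 10.9, 12.4 and 15.8 CPM at ZT05 (-0.57 ± 0.12 SE, adjusted p = 0.0036), which met at their edges. Control mice thus had less Slc30a1 at ZT17 in all 3 muscles. Gastrocnemius was also lower at ZT17 (-1.43 ± 0.32 SE, adjusted p = 0.0302), but the call was lost without any 1 of mice 31, 34, 39, 48, 49, 50, 56, 58 and 77 (log2 fold change from -1.57 to -1.19, adjusted p from 0.0596 to 0.123). Its male Control libraries included second-cohort mouse 77 at ZT05 and only first-cohort mice at ZT17. Time and cohort are thus partly mixed in that muscle. Over all genes 2.6% of tests were called higher and 2.66% lower at ZT17 in Control mice. The 5 genes gave 10 and 6 calls there, and 2 and 6 in Deficient mice (0.789% and 0.812% over all genes).

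Brown adipose tissue had 5.26, 6.51 and 11.5 CPM of Slc30a1 at ZT17 and 0.750, 5.64 and 15.6 CPM at ZT05 in Deficient mice, and 0, 4.43 and 8.66 CPM at ZT17 and 4.11, 8.85 and 12.3 CPM at ZT05 in Control mice. The Deficient response was 1.30 ± 0.35 SE, adjusted p = 0.0141 at ZT17, and the difference of responses was 2.01 ± 0.45 SE, adjusted p = 0.00475 and 1.95 (adjusted p = 0.0074) with a term for cohort. The low values are from males. Male Deficient libraries at ZT05 held 2, 5 and 8 counts of the gene and male Control libraries at ZT17 held 0, 2 and 3 counts. Female libraries held 137 to 618 counts and had 5.26, 6.57 and 11.5 CPM at ZT17 and 8.30, 10.5 and 15.6 CPM at ZT05 in Deficient mice, against 7.12, 8.02 and 8.66 CPM at ZT17 and 9.71, 10.4 and 12.3 CPM at ZT05 in Control mice. At ZT17 the female Deficient median thus lay below the female Control median, while the response averaged over the sexes was positive. Whether the low male counts shape the call was not tested.

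In the kidney Slc39a14 and Mtf1 were lower in Deficient mice at ZT17, while the exporter Slc30a1 was not called. Slc30a1 had 48.8, 60.5 and 81.0 CPM in Deficient against 67.8, 71.6 and 77.9 CPM in Control kidneys at ZT17. Over both times 3489 of 16797 genes were called lower in male kidneys and 785 in female kidneys. The kidney share at ZT17 alone is not given here. Slc39a14 had 29.5, 42.8 and 52.4 CPM in Deficient kidneys at ZT17, against 38.4, 60.3 and 77.2 CPM in Control kidneys (-0.46 ± 0.13 SE, adjusted p = 0.00981). At ZT05 it had 35.8, 49.4 and 56 CPM in Deficient against 35.7, 42.1 and 45.9 CPM in Control kidneys, which was not called. The difference of responses, -0.68 ± 0.18 SE, adjusted p = 0.0302, was lost without any 1 of mice 35, 48, 74, 81, 82, 85 and 93 (log2 fold change from -0.69 to -0.63, adjusted p from 0.0521 to 0.0583). Mtf1 had 12.8, 14.7 and 20.6 CPM in Deficient against 16.5, 22.4 and 25.5 CPM in Control kidneys at ZT17 (-0.45 ± 0.10 SE, adjusted p = 0.00264), and 17, 22.2 and 26 CPM in Deficient against 17.9, 19.8 and 22.5 CPM in Control mice at ZT05. All groups overlapped at both times. The Mtf1 difference of responses, -0.59 ± 0.14 SE, adjusted p = 0.0191, held without each mouse.

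Mt1 in the Deficient kidney moved the same way with time, at 71.6, 81.4 and 88.7 CPM at ZT17 against 82.2, 119 and 238 CPM at ZT05 (-0.63 ± 0.14 SE, adjusted p = 0.0087). Control kidneys had 58, 77.8 and 92.7 CPM of Mt1 at ZT17 against 68.4, 85.6 and 117 CPM at ZT05, which was not called. The Deficient rise of kidney Mt1 at ZT05 (0.50 ± 0.14 SE, adjusted p = 0.0137) was lost without mouse 81 (0.42, adjusted p = 0.0547). In the lung Mtf1 had 14.3, 16.2 and 19.2 CPM in Deficient against 19.6, 23.2 and 27.6 CPM in Control mice at ZT17, and 16.7, 21.3 and 24.2 CPM in Deficient against 15.2, 18.8 and 21.8 CPM in Control mice at ZT05. At ZT17 each Deficient lung lay below each Control lung. The lung difference of responses was -0.65 ± 0.17 SE, adjusted p = 0.0265 and was lost without any 1 of mice 34, 35, 36 and 53 (log2 fold change from -0.64 to -0.56, adjusted p from 0.0522 to 0.0567). The lung response at ZT17 (-0.47 ± 0.12 SE, adjusted p = 0.0487) was lost without any 1 of 18 of 24 mice (log2 fold change from -0.52 to -0.38, adjusted p from 0.0504 to 0.139).

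In the EDL tendon the Control level of the metallothioneins differed by time of day. Mt1 had 63.1, 134 and 244 CPM at ZT17 against 21.5, 24.8 and 50.7 CPM at ZT05 in Control mice (2.22 ± 0.37 SE, adjusted p = 0.00387), and Mt2 had 98.7, 216 and 461 CPM at ZT17 against 9.92, 20.4 and 49.5 CPM at ZT05 (3.26 ± 0.45 SE, adjusted p = 0.000673). Neither gene's times overlapped. Deficient EDL tendons had 63, 133 and 379 CPM of Mt1 at ZT17 and 41.7, 124 and 267 CPM at ZT05, which overlapped. Deficient mice were thus higher than Control mice at ZT05, by 2.07 ± 0.36 SE, adjusted p = 0.0045 for Mt1 and 2.65 ± 0.44 SE, adjusted p = 0.00288 for Mt2, and at ZT17 Mt1 was at 0.16 ± 0.35 SE, adjusted p = 0.852. The difference of the 2 responses was not called (-1.91 ± 0.50 SE, adjusted p = 0.231 for Mt1 and -2.79 ± 0.59 SE, adjusted p = 0.112 for Mt2). Control TA tendons had 12.1, 88.2 and 160.2 CPM of Mt1 at ZT17 against 4.32, 19.0 and 37.3 CPM at ZT05, which overlapped. Deficient TA tendons had 41.8, 101 and 161 CPM at ZT17 and 54.5, 94.1 and 207 CPM at ZT05.

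Slc39a14 and Mtf1 were higher at ZT17 than at ZT05 in Control soleus. Control soleus had 30.8, 37.4 and 43.9 CPM of Slc39a14 at ZT17 against 18.8, 20.4 and 23.5 CPM at ZT05 (0.84 ± 0.23 SE, adjusted p = 0.0135), and 22.3, 28.2 and 32.1 CPM of Mtf1 at ZT17 against 12.7, 16.4 and 20.4 CPM at ZT05 (0.75 ± 0.10 SE, adjusted p = 1.77e-05). The times did not overlap for either gene. Deficient soleus had 28.4, 34.6 and 97.3 CPM of Slc39a14 at ZT17 against 14.6, 37.1 and 60.1 CPM at ZT05, with wide overlap (0.23 ± 0.23 SE, adjusted p = 0.647). EDL and TA of Control mice had Slc39a14 higher at ZT17 as well (0.52 ± 0.14 SE, adjusted p = 0.017 in EDL and 0.52 ± 0.13 SE, adjusted p = 0.0144 in TA). At ZT05 Slc39a14 was higher in Deficient than in Control soleus (0.78 ± 0.23 SE, adjusted p = 0.023), a call lost without any 1 of mice 35, 43, 81 and 93 (log2 fold change from 0.62 to 0.75, adjusted p from 0.0516 to 0.0791). The same held for EDL (0.46 ± 0.15 SE, adjusted p = 0.0259), where it was lost without any 1 of mice 43, 77, 81 and 93 (log2 fold change from 0.36 to 0.46, adjusted p from 0.0501 to 0.0837).

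**Figure D4:**
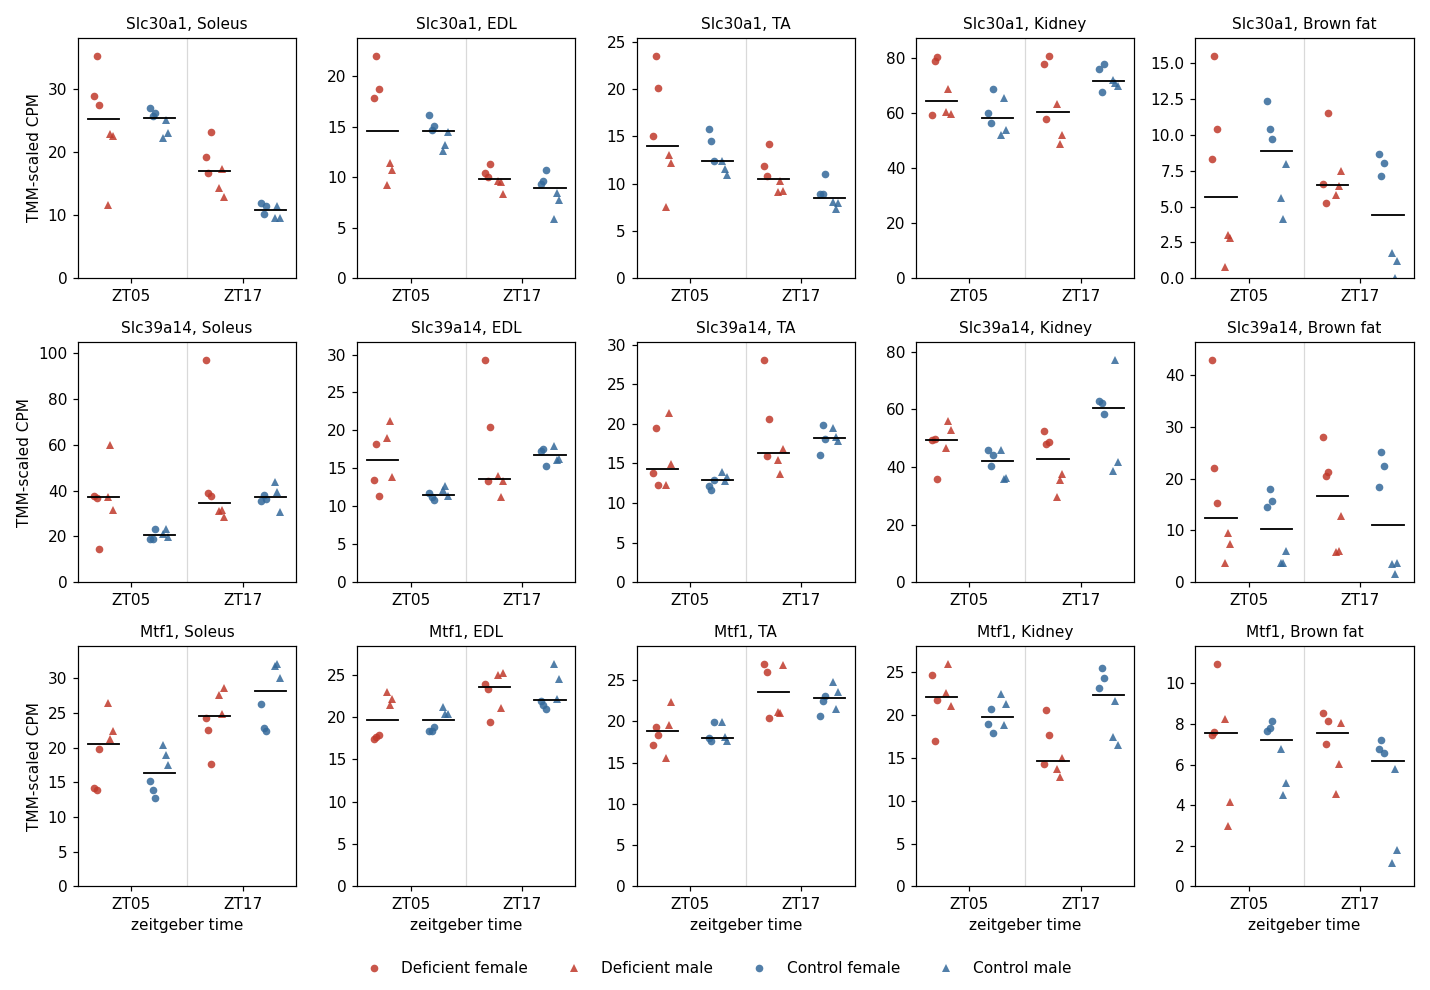
CPM of Slc30a1, Slc39a14 and Mtf1 (rows) in soleus, EDL, TA, kidney and brown adipose tissue (columns) at ZT05 and ZT17, with Deficient left of Control, circles for females, triangles for males and a line at the median of 6 libraries. In Control soleus and EDL, Slc30a1 is lower at ZT17 than at ZT05 without overlap, and in the kidney Mtf1 is lower in Deficient than in Control mice at ZT17.

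Control levels of the 5 genes over the tissues are given as mean ± SD over the Control libraries of a sex, with ZT05 and ZT17 pooled (n = 6, and 5 in the male TA tendon). They carry no test, since the same mice gave all tissues. TMM factors were set within each tissue over both sexes, so levels are not on a common scale over tissues. In female Control mouse 31, Mt1 in brown adipose tissue was 63.8 CPM with TMM and 145.4 CPM without it. In the TA tendon of the same mouse Mt1 was 6.79 CPM with TMM and 5.06 CPM without it. The orders and fold ranges below therefore depend in part on this scaling. Neighbours in the order are called not apart where their means differ by less than the larger of their SDs.

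Mt1 in female Control mice was highest in the ovary (147 ± 36 CPM). Of these 6 ovary libraries 3 had Cyp11a1 under 3 CPM, a limit on the ovary level of every gene here. Mt1 was 108 to 124 CPM in those 3 and 161 to 204 CPM in the others. It stood at 97.1 ± 89.96 CPM in the EDL tendon, 86.7 ± 51 CPM in the adrenal gland, 77.4 ± 8.7 CPM in the kidney, 67.9 ± 35 CPM in the pituitary, 54.7 ± 34 CPM in the uterus, 53 ± 15 CPM in brown adipose tissue and 46.3 ± 62 CPM in the TA tendon. Lower levels were 29.3 ± 6.8 CPM in the heart, 25.4 ± 16 CPM in the liver and 19.1 ± 5.1 CPM in the lung. The gastrocnemius tendon (10.8 ± 3.6 CPM), gastrocnemius (10.2 ± 11 CPM), soleus (9.79 ± 1.9 CPM), quadriceps (7.21 ± 1.9 CPM), TA (6.78 ± 2.9 CPM), spleen (5.67 ± 3.1 CPM) and EDL (5.01 ± 1.7 CPM) closed the order. The highest mean was 29.3 times the lowest, but 15 of 17 pairs of neighbours were not apart. In the EDL and TA tendons the SD was near or above the mean. With CPM taken outside mitochondrial and rRNA-like genes, brown adipose tissue and not the ovary stood first.

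In male Control mice Mt1 was highest in the testis (315 ± 36 CPM) and the pituitary (303 ± 81 CPM), which were not apart. The kidney followed with 89.6 ± 22 CPM, then the EDL tendon (71.9 ± 51 CPM), TA tendon (67.1 ± 37 CPM), adrenal gland (56.5 ± 17 CPM), brown adipose tissue (51.8 ± 12 CPM), lung (46.2 ± 16 CPM) and gastrocnemius tendon (38 ± 25 CPM). Liver (27.2 ± 23 CPM), heart (27.2 ± 7.1 CPM), quadriceps (25.4 ± 14 CPM), gastrocnemius (20.7 ± 15 CPM), spleen (13.7 ± 8.1 CPM), soleus (10.7 ± 2.0 CPM), EDL (3.95 ± 1.7 CPM) and TA (2.78 ± 0.63 CPM) were lower. The range was 113-fold, and 14 of 16 pairs of neighbours were not apart. Outside mitochondrial and rRNA-like genes the pituitary and not the testis stood first.

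Mt2 levels were highest in the EDL and TA tendons, ovary, pituitary and testis. In female Control mice it was highest in the EDL tendon (155 ± 176 CPM), the ovary (96.3 ± 19 CPM), the TA tendon (69.4 ± 106 CPM) and the pituitary (67.2 ± 13 CPM). Kidney (42.9 ± 6.1 CPM), adrenal gland (42.1 ± 29 CPM), uterus (23.1 ± 16 CPM), liver (19.8 ± 14 CPM), brown adipose tissue (17.8 ± 10.35 CPM), lung (12.4 ± 6.1 CPM) and gastrocnemius tendon (11.5 ± 7.6 CPM) lay between. The lowest were gastrocnemius (6.94 ± 7.7 CPM), soleus (6.64 ± 1.3 CPM), heart (4.96 ± 0.72 CPM), spleen (4.47 ± 3.2 CPM), quadriceps (3.66 ± 1.2 CPM), TA (2.99 ± 2.1 CPM) and EDL (2.91 ± 1.2 CPM). Of the 17 pairs of neighbours, 15 were not apart. In male Control mice the pituitary led with 287 ± 62 CPM, above the testis (127 ± 23 CPM), EDL tendon (107 ± 98 CPM) and TA tendon (106 ± 65 CPM). Male kidney (37.1 ± 10.17 CPM), gastrocnemius tendon (30.4 ± 18 CPM), adrenal gland (29.6 ± 5.0 CPM), lung (17.6 ± 7.0 CPM), brown adipose tissue (13.3 ± 8.5 CPM), gastrocnemius (12.2 ± 8.4 CPM), quadriceps (11.7 ± 6.6 CPM) and liver (9.85 ± 7.3 CPM) came next. Heart (6.84 ± 1.7 CPM), soleus (4.55 ± 0.99 CPM), spleen (3.54 ± 2.0 CPM), EDL (1.40 ± 0.65 CPM) and TA (0.627 ± 0.30 CPM) held least, a 458-fold range with 10 of 16 pairs not apart.

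Slc30a1, the exporter, was highest in the kidney of both sexes, at 67.9 ± 8.5 CPM in female and 64.1 ± 9.0 CPM in male Control mice. In females the lung (47 ± 6.4 CPM), uterus (38.1 ± 4.9 CPM) and ovary (36.7 ± 2.0 CPM) followed, and in males the testis (41.6 ± 2.1 CPM) and adrenal gland (23.7 ± 3.5 CPM). The other female tissues stood at 22.8 ± 3.6 CPM (adrenal gland), 22.1 ± 2.6 CPM (spleen), 18.8 ± 1.3 CPM (heart), 18.8 ± 8.3 CPM (soleus), 18.5 ± 1.9 CPM (pituitary), 17 ± 5.2 CPM (liver), 14.9 ± 4.4 CPM (EDL tendon), 14 ± 4.4 CPM (quadriceps), 13 ± 2.9 CPM (TA tendon), 12.6 ± 3.0 CPM (EDL), 11.9 ± 2.8 CPM (TA), 10.3 ± 5.0 CPM (gastrocnemius), 9.38 ± 1.9 CPM (brown adipose tissue) and 8.71 ± 3.0 CPM (gastrocnemius tendon). Below soleus (16.8 ± 7.3 CPM), the other male tissues ran from the lung (11.2 ± 4.7 CPM) down to brown adipose tissue (3.43 ± 3.0 CPM) and liver (3.17 ± 1.5 CPM). In females 13 of 17 and in males 14 of 16 pairs of neighbours were not apart. The range over male tissues was 20.2-fold. Outside mitochondrial and rRNA-like genes it was 8.82-fold, with the gastrocnemius and not the liver lowest.

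Slc39a14, the importer, ranged 5.96-fold over female tissues. The female ovary (63.9 ± 12 CPM), liver (60.3 ± 3.0 CPM), pituitary (58.7 ± 14 CPM), heart (54.4 ± 11 CPM) and kidney (52.2 ± 9.99 CPM) were not apart from their neighbours. Adrenal gland (43.9 ± 10.07 CPM), uterus (37.7 ± 7.3 CPM), TA tendon (36.9 ± 31 CPM), EDL tendon (30.5 ± 14 CPM) and soleus (28.5 ± 9.2 CPM) came next. Brown adipose tissue (19 ± 4.0 CPM), quadriceps (18.2 ± 3.8 CPM), lung (15.2 ± 0.95 CPM), TA (15.1 ± 3.4 CPM), EDL (14 ± 3.1 CPM), gastrocnemius tendon (12.8 ± 3.8 CPM), gastrocnemius (11.2 ± 1.9 CPM) and spleen (10.7 ± 1.1 CPM) held least. Without TMM, or outside mitochondrial and rRNA-like genes, the female liver stood first, with means of 172 and 183 CPM. In male Control mice the TA tendon (48.9 ± 18 CPM), kidney (45.9 ± 16 CPM) and adrenal gland (42.8 ± 5.8 CPM) led and brown adipose tissue was lowest (3.73 ± 1.4 CPM). Outside mitochondrial and rRNA-like genes the male liver stood first (65.4 CPM) and the testis last.

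Mtf1 varied least among female tissues, from 33.5 ± 2.8 CPM in the ovary to 6.73 ± 1.4 CPM in the liver. That 4.98-fold range narrowed to 2.01-fold without TMM and to 1.71-fold outside mitochondrial and rRNA-like genes. The uterus (26.5 ± 5.6 CPM), adrenal gland (24.1 ± 5.8 CPM), pituitary (23 ± 2.1 CPM) and kidney (21.8 ± 3.1 CPM) followed the ovary, and heart (13.5 ± 3.1 CPM) and brown adipose tissue (7.36 ± 0.61 CPM) stood just above the liver. The other 10 female tissues lay between 15.6 ± 2.9 CPM (gastrocnemius tendon) and 21.8 ± 4.0 CPM (quadriceps). In males the testis stood apart with 117 ± 12 CPM, against 25.1 ± 6.9 CPM in soleus, the next tissue, and 3.39 ± 1.2 CPM in liver, the lowest. The testis level was the highest on all 3 scales. The range over male tissues was 34.4-fold with TMM and 100.2-fold without it, with the liver lowest on both. Outside mitochondrial and rRNA-like genes it was 9.68-fold, with the pituitary lowest.

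Levels of different genes were compared only per kilobase of exon. On that scale of mean CPM per kilobase, female Control kidney had 72.9 for Mt2, 62.1 for Mt1, 12.9 for Slc30a1, 4.95 for Slc39a14 and 2.44 for Mtf1. In female EDL the same values were 4.95, 4.02, 2.40, 1.33 and 2.24. The metallothioneins thus stood well above the transporters in kidney and within a few units of them in female Control EDL. Male Control pituitary had 488 for Mt2 and 243 for Mt1, and male TA had 1.07 and 2.23.

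**Figure D5:**
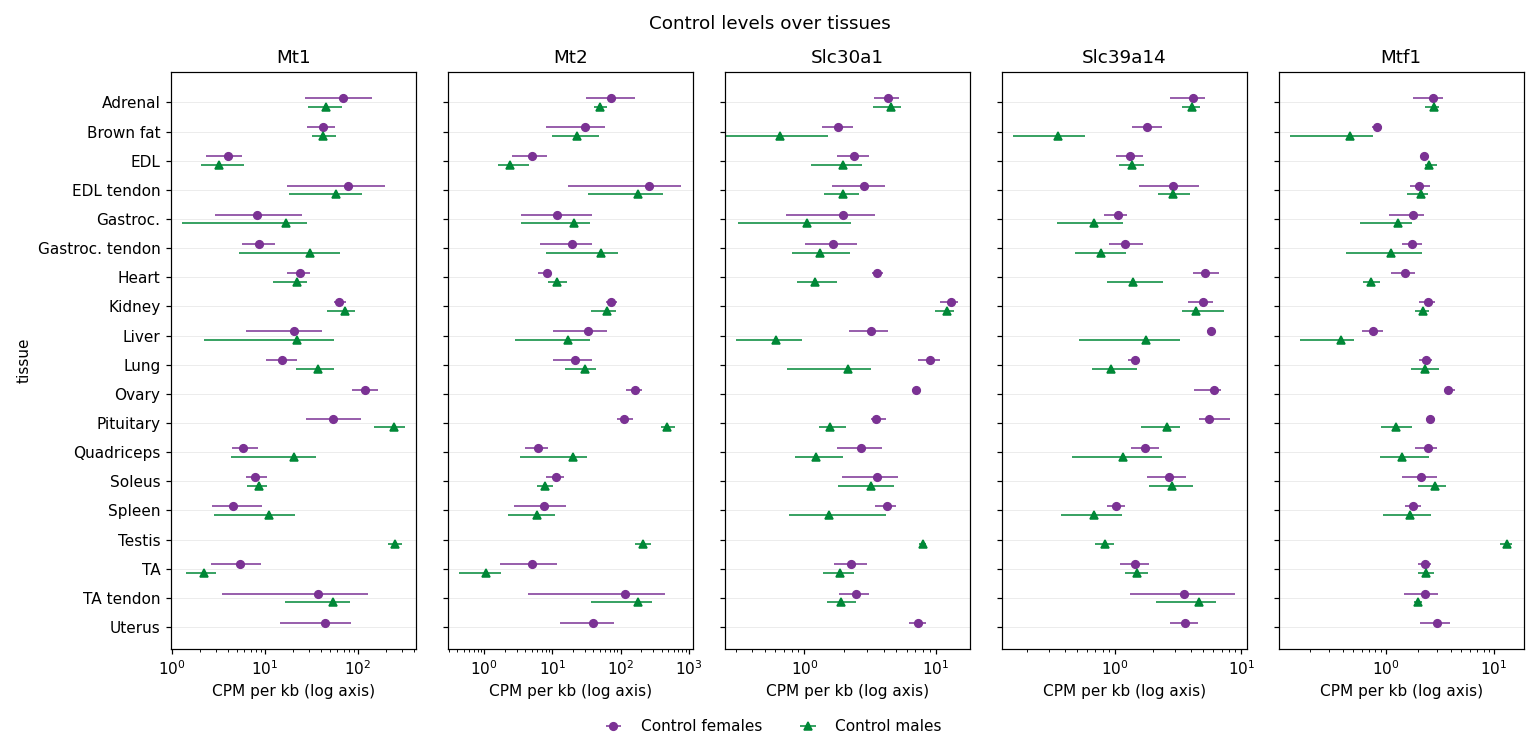
Mean CPM per kilobase of exon (log axis) of each gene in the Control libraries of every tissue, for females and males, with bars running over the lowest and the highest library. The metallothioneins cover a much wider range over tissues than Slc30a1, Slc39a14 and Mtf1; a bar that reaches the left edge belongs to a library at 0 counts (Slc30a1 in male brown adipose tissue).

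The balance of the 2 metallothioneins was set out as the ratio of Mt1 to Mt2 counts within each library, which no scaling factor touches. In the uterus it was 0.853, 1.0 and 1.28 in Deficient mice (lowest, median, highest), against 1.73, 2.46 and 3.36 in Control mice, and the groups did not overlap. An exact two-sided permutation test over the 6 and 6 libraries gave p = 0.00216, the smallest this design can give, and 0.0606 after Benjamini-Hochberg adjustment over 35 such tests. The ratio was lower in Deficient mice in 26 of the 35 pairs of tissue and sex. Of the 35 tests 7 had an unadjusted p under 0.05 and 0 passed after adjustment, and the ratio was chosen as a measure after the data had been seen. Over tissues the median ratio of female libraries ran from 0.857 in the EDL tendon to 6.10 in the heart, and of male libraries from 0.627 in the TA tendon to 5.0 in TA.

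Other genes of zinc handling were read from lists of the SLC30 exporter and SLC39 importer families. Their counts stand against 4.93% called higher and 5.29% lower over all genes in females, and 3.09% and 3.16% in males. Exporters in females gave 9 of 136 tests called higher (6.62%) and 7 lower (5.15%), both near those shares. Slc30a2, which loads zinc into vesicles, was called higher in 4 female tissues (EDL, pituitary, soleus and TA, log2 fold changes from 0.83 to 1.69), next to the 3 of Slc30a1. Importers in females gave 1 of 216 called higher, which was Slc39a14, and 19 lower (8.8%, against 5.29% over all genes). Among these were Slc39a1, an importer of the plasma membrane, in 5 tissues and Slc39a10 and Slc39a3 in 3 each. In males 2 exporter tests of 129 were higher (1.55%) and 1 lower (0.775%), and 2 importer tests of 203 were higher (0.985%) and 8 lower (3.94%), of which Slc39a1 made 3. The brain-type metallothionein Mt3 was called higher in the female uterus (log2 fold change 3.26) and lower in the female EDL tendon (-1.60), and Mt4 could be tested in 1 tissue, with 0 calls.

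The gene lists were chosen with earlier results of these data known, and their tests repeat genes over tissues of the same mice. Their shares are thus a description only. Targets of the glucocorticoid receptor were a further list, of which Mt1 and Mt2 are themselves part. Without them, 92 of 275 female tests were called higher (33.5%) and 8 lower (2.91%), and 86 of 259 male tests higher (33.2%) and 0 lower, beside the same shares over all genes of 4.93% higher and 5.29% lower in females and 3.09% and 3.16% in males. Fkbp5, which encodes a chaperone partner of that receptor, was called in 13 female tissues (median log2 fold change 1.29) and in 11 male tissues, and the clock gene Per1 in 13 female tissues (1.23). Iron handling gave 11 of 220 female tests higher (5%) and 24 lower (10.9%), with Tfrc, the transferrin receptor, lower in 7 tissues, and 11 of 209 male tests higher and 11 lower (5.26% each). Copper handling gave 7 tests of 169 higher (4.14%) and 10 lower (5.92%) in females, near the shares over all genes, and 8 of 159 higher (5.03%) and 7 lower (4.4%) in males. Targets of NRF2, the oxidative stress factor, gave 22 of 194 higher (11.3%) and 12 lower (6.19%) in females, where Gstm1 was higher in 7 tissues, and 10 of 182 higher (5.49%) and 6 lower (3.3%) in males. The acute phase list gave 18 of 196 higher (9.18%) and 14 lower (7.14%) in females and 29 of 185 higher (15.7%) and 2 lower in males, with the receptor gene Il6ra higher in 8 female and 6 male tissues. Regulators that include Mtf1 gave 6 of 126 higher (4.76%) and 5 lower (3.97%) in females, with the glucocorticoid receptor gene Nr3c1 lower in 3 tissues, and 4 of 119 higher (3.36%) and 1 lower (0.84%) in males.

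Which genes ran most like each of the 5 was read from the means of 140 groups of tissue, sex, treatment and time, centred within each tissue and sex, over 11041 candidate genes. The groups share mice, libraries of unequal depth and TMM scaling, so the correlations are a description. Mt1 and Mt2 were each other's nearest gene (Pearson r = 0.94). After Mt2, Mt1 ran closest to Gm27252 (0.76), 2410006H16Rik (0.73), Lgals3 (0.72) and Agfg2 (0.70), and after Mt1, Mt2 to Jade2 (0.74), Gm27252 (0.72), Ppp1r15a (0.70) and Agfg2 (0.69). Slc30a1 ran closest to Osbp (0.70), Mat2b (0.68), Rad21 (0.66), Smad2 (0.66) and Foxn2 (0.65). Slc39a14 ran closest to Ubr2 (0.66), Slc35f5 (0.64), Ranbp9 (0.62), Uhrf1bp1l (0.61) and Abcc3 (0.60), and Mtf1 to Mavs (0.65), Zfp568 (0.65), Ttll4 (0.64), Mtrr (0.62) and Zfp142 (0.62).

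Females gave all their tissues from the same 12 mice, 3 per treatment and time, so a mouse's rank could be followed over 18 tissues. Among Deficient females at ZT05 mouse 59 had the lowest Mt1 of the 3 in 15 of 18 tissues and the lowest Slc39a14 in 16, while mouse 43 had the highest Slc30a1 in 15. In that group 3.10% of 11042 genes had a mouse at the top or bottom as often as Mt1, 1.3% as often as Slc39a14 and 3.10% as often as Slc30a1. Among Deficient females at ZT17 mouse 60 had the highest Slc30a1 in 15 tissues, as often as a mouse did for 3.30% of genes. Among Control females at ZT05 mouse 47 had the lowest Slc30a1 in 13 tissues (4.17% of genes). These 5 are the rarest of the 20 pairs of gene and group, and for the other 15 the share of genes ran from 7.63 to 99.8%, among them 11.6% for Mt2 and 93.4% for Mtf1 in Deficient females at ZT05.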

How the data were processed

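Per the labels' protocols, total RNA was taken up in TRIzol and 500 ng went into stranded polyA-selected libraries. The authors deposited raw counts per gene (Ensembl IDs with symbols), and the submitters' processing notes name STAR 2.7.10a, DESeq2 1.34.0, cutadapt 4.1, FastQC 0.11.9 and the builds GRCm38 and mm10. Normalized counts that they deposited as well were not used here. The counting tool, its strand setting and its handling of reads that match several genes are not given in the sources used here.

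Counts were analysed in each tissue apart, with 1 coefficient for each sex, treatment and ZT group. edgeR 4.0.16 (R 4.3.3, limma 3.58.1) was run with filterByExpr (minimum count 10, total 15), TMM, a quasi-likelihood F test and Benjamini-Hochberg adjustment over all genes tested in the tissue. The fit was tested on simulated data. All 5 genes passed the filter in all 19 tissues. Labels do not say that replicates are separate litters or cages, so p-values measure the spread between these samples. No library pair held identical values, and 0 columns of the table were left out. Alternatives were DESeq2 1.42.0, its size factors, 2 other low-count filters (none, and 5 CPM in at least 3 libraries), a replicate block, each sex fitted alone, a cohort term, removal of 391 mitochondrial and rRNA-like genes and leaving out each mouse number. Fits without a mouse kept the trend of spread against expression from the tissue's full fit, so the mouse left out still entered that trend. Each gene's own spread was estimated anew. The alternative without the 3 libraries holding RNA of another organ was chosen after the data had been seen. Members and gene lists were chosen with earlier results of these data known. The text names the 5 genes in every comparison and, from each list, up to 3 genes called the same way in most tissues of a sex. Promoter sequences are RefSeq's (GRCm38.p6). Depth limits low genes: male brown adipose tissue and liver libraries held few counts of Slc30a1.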

Additional observations from a re-analysis of the deposited data

Results flagged for a closer look

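In 11 of 58 Deficient or Control groups of 6 libraries tested, those in which the gene was called in that sex, the highest library stood far from the other 5 relative to the whole range, where chance does so in about 1 of 20 groups of normal values. That rate is only a guide here, since the groups pool both times, were those with a call, and count Mt1 and Mt2 of the same mice apart. Mouse 38, a Deficient male at ZT17, did so for Mt1 (1341 CPM, next 327 CPM) and Mt2 (1616 CPM, next 355 CPM) in the gastrocnemius tendon and for Mt2 in the heart (50.8 CPM, next 19.2 CPM). Mouse 81, a Deficient male at ZT05, did so for Mt2 in EDL (12.8 CPM, next 5.5 CPM) and Mt1 in soleus (35.3 CPM, next 17.4 CPM). Mouse 36 had 32.6 CPM of Mt1 in EDL (next 14.3 CPM), mouse 43 had 238 CPM of Mt1 in the kidney (next 130.1 CPM) and mouse 73 had 28.1 CPM of Mt1 in TA (next 14.7 CPM), all Deficient. Among Control libraries mouse 78 had 7.32 CPM of Mt1 in EDL (next 4.16 CPM), mouse 94 had 2.67 CPM of Mt2 in EDL (next 1.46 CPM) and mouse 48 had 6.83 CPM of Mt2 in TA (next 3.1 CPM).

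The response to energy deficiency was called different between ZT17 and ZT05, by a test of the difference itself, for 5 of 95 pairs of gene and tissue. Over all genes 1.9% of such tests were called. The differences of log2 responses, ZT17 minus ZT05, were 2.01 for Slc30a1 in brown adipose tissue, 0.72 for Slc30a1 in soleus, -0.68 for Slc39a14 in kidney, -0.59 for Mtf1 in kidney and -0.65 for Mtf1 in lung. Their adjusted p (edgeR) were 0.00475, 0.0336, 0.0302, 0.0191 and 0.0265. As given above, the calls for soleus Slc30a1, kidney Slc39a14 and lung Mtf1 were each lost without any 1 of several mice. The brown adipose value includes male libraries with very few counts of Slc30a1.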

How the results depend on the processing

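The 96 called results kept their direction in all alternatives and in all refits without a mouse. Of 625 recomputed values 608 stayed called and 17 did not, and of 2240 refits without 1 mouse 1989 stayed called and 251 did not. Without a low-count filter more pairs were called: 25 higher in Deficient females, 22 higher and 1 lower in Deficient males, 7 for the sex difference, 28 at ZT17, 19 for the difference between the times, 30 for time in Control and 14 for time in Deficient mice. DESeq2 called 20 higher in males, 1 sex difference and 10 differences between the times, and edgeR with DESeq2's size factors called 1 sex difference. The cause was not tested. Mean Slc30a1 of Control kidney was 81.8 CPM in females outside mitochondrial and rRNA-like genes and 54.0 CPM in males without TMM. Leaving out each mouse gave 13 to 19 calls higher in females, 11 to 17 in males, 0 to 1 for the sex difference (1 without mouse 35, 56, 59, 77, 81, 86 or 90), 14 to 24 at ZT05 (14 without mouse 31), 8 to 21 at ZT17 (8 without mouse 36), 3 to 6 for the difference between the times (3 without mouse 48, 74, 82 or 85), 14 to 19 for time in Control and 3 to 10 for time in Deficient mice. With the replicate block 16 pairs were called higher in females. Samples that share a replicate number within a tissue did not deviate together on average (mean residual correlation from -0.0224 to 0.0777 over tissues, lowest pair -0.805). Replicate numbers were thus not taken to pair samples in the main fit, while mouse numbers link the tissues of an animal.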

Other observations

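The ovary libraries fell into 2 kinds by the steroidogenic enzyme gene Cyp11a1, which was under 3 CPM in 5 of 6 Deficient and 3 of 6 Control libraries. Among Deficient libraries Mt1 was 157, 236 and 283 CPM (lowest, median, highest of 5) where Cyp11a1 was under 3 CPM and 170.4 CPM in the 1 library over it. Among Control libraries Mt1 was 108, 121 and 124 CPM where Cyp11a1 was under 3 CPM and 161, 162 and 204 CPM where it was over 3 CPM. The ovary marker sum ran from 4.34 to 6445 CPM with a median of 9.35 CPM, so the label ovary and the markers go apart in most of these libraries.

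In Control gastrocnemius Mt2 was 3.80, 18.0 and 22.1 CPM at ZT17 against 2.03, 2.40 and 12.2 CPM at ZT05, and in Deficient gastrocnemius 3.71, 9.91 and 21.9 CPM at ZT17 against 5.67, 20.4 and 49.1 CPM at ZT05. Mt2 in Control brown adipose tissue was 4.81, 9.15 and 12.8 CPM at ZT17 against 9.02, 21.6 and 34.3 CPM at ZT05 (-1.30 ± 0.36 SE, adjusted p = 0.0177), a call lost without mouse 33 or 34. Slc30a1 in Control liver was 2.76, 13 and 22.5 CPM at ZT17 against 1.59, 7.06 and 13.2 CPM at ZT05 (0.89 ± 0.21 SE, adjusted p = 0.00928), the opposite sign to muscle, and the call was lost without mouse 58 (0.80, adjusted p = 0.0648). These liver ranges pool the sexes, whose Control levels were far apart, and male liver libraries held few counts of the gene.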
